A study of Mus musculus with 6 samples.

Results

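Among the genes of the cytosolic ribosome and of translation factors, 23 of the 3019 features in the pooled comparison of siH19- with siCon-transfected myotubes were examined. A feature is a gene-level locus of the transcript assembly, and 2549 of the 3019 carry a gene symbol. Members were taken by symbol alone, from those of ribosomal proteins, initiation and elongation factors, aminoacyl-tRNA synthetases, cytoplasmic poly(A)-binding proteins, RNA polymerase I subunits and rRNA processing factors. The kinases of ribosomal protein S6 were left out of the members. The symbols reach beyond the cytosolic machinery in 5 cases. Eif2c2, Eif2c3 and Eif2c4 are older symbols of Ago2, Ago3 and Ago4, the Argonaute proteins that hold small RNAs, and Aars2 and Wars2 encode mitochondrial synthetases.

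The cells were C3H myoblasts, a commercial mouse line, differentiated into multinucleated myotubes. The siCon group received a control siRNA and the siH19 group an siRNA against the H19 long non-coding RNA. The study's RNA-seq methods can be read as placing this at 40 h of differentiation, whereas its general culture methods place transfection later. The myotubes of both groups, each with 3 libraries, were collected 48 h after transfection. By the study's methods the transfections were done in triplicate in cells kept in multi-well plates, and neither the methods nor the labels speak of separate days or passages. Libraries were strand-specific and made from rRNA-depleted total RNA. The table gives 1 level per group, estimated over its 3 libraries, as log2 FPKM (fragment counts scaled for transcript length and for the number of mapped fragments). Levels per library and their depth are not part of these pooled values, so no spread between replicates and no test could be computed from them. The study states that its sequences are available, but they were not analysed here. Every difference below is a description of pooled values. Only features called by the authors are in the table, so each member was selected for a difference, and a gene without a listed feature has no value here.

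The siRNA target was lower in the group labelled siH19. H19 stood at 2353 FPKM in siCon and 181 FPKM in siH19, which is 7.69% of the siCon level. Markers fixed for skeletal myotubes were listed for 16 of 22 genes, in 12 features with levels in siCon from a log2 FPKM of 2.64 to 11.30. All 12 were higher in siH19, by log2 differences from 0.44 to 1.49, beside 60.1% of all listed features with a symbol. Myog, which drives myotube formation, was 2.69-fold higher. Of the 27025 genes with a RefSeq promoter window, expressed or not, 2051 had a listed feature. Of 13 markers of endothelial, immune, neural and fat cells, 0 had a listed feature. The muscle markers had the direction of most listed features and of the higher members described below. Their part in the differences of those members was not tested. In these bulk samples, more cells of a type and more RNA per cell cannot be told apart.

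Translation begins when initiation factors bring the 40S ribosomal subunit, the initiator tRNA and the capped mRNA together. The 60S subunit then joins, elongation factors move the ribosome along, and synthetases supply it with charged tRNAs. Ribosomal subunits are themselves built in the nucleolus around rRNA made by RNA polymerase I. In growing muscle, ribosome number and initiation are known to limit how much protein is made.

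Of the 23 members, 15 were higher and 8 lower in siH19. The share of higher members, 65.2%, was near that of all listed features with a symbol, of which 60.1% were higher and 39.9% lower, so that the count by itself is not a result about these genes. Among all 3019 listed features, 62.8% were higher and 37.2% lower. With the median difference of 0.41 over the listed features with a symbol subtracted from every feature, the members divided into 11 higher and 12 lower. The median difference over the members was 0.39 on the log2 scale, close to the 0.41 of the listed features with a symbol. Differences of at least 1.5-fold were found for 9 members, or 39.1%, against 47.0% of listed features with a symbol. Of these 9, 8 were higher and 1 lower, whereas with the median of 0.41 subtracted 0 members were higher and 8 lower by that size. For higher features of that size the background is 30.8% of listed features with a symbol, and for lower ones 16.3%. No member reached 2-fold, a size that 15.1% of the listed features with a symbol reached. Members were therefore of moderate difference, from a log2 value of -0.91 to 0.99. They were also abundant, with a median log2 FPKM in siCon of 5.41, against 3.30 over the listed features with a symbol.

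**Figure D1:**
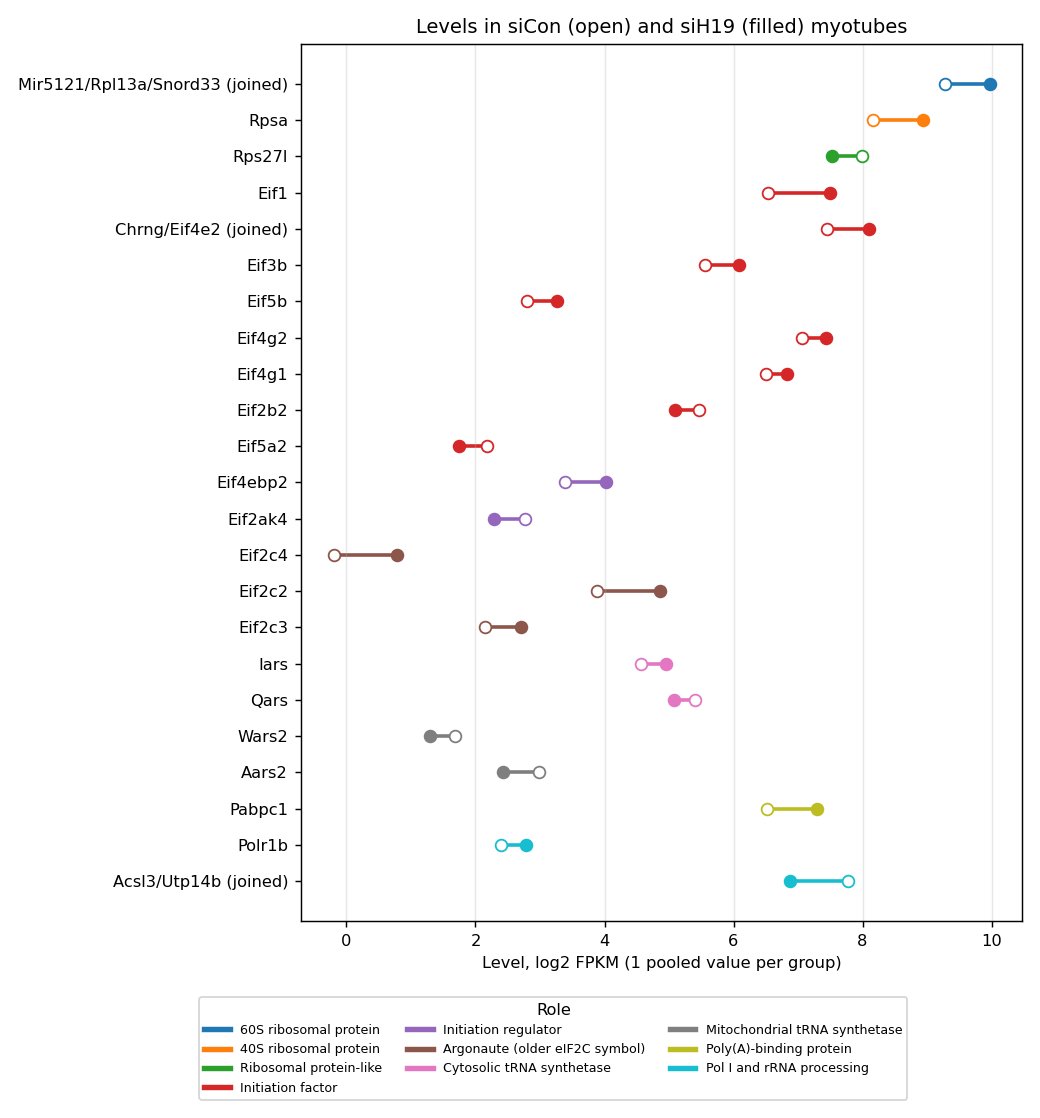
Level of each of the 23 members in siCon (open circles) and siH19 (filled circles) as log2 FPKM, 1 pooled value per group, coloured by role. The Rpl13a feature is the most abundant, and 15 of the 23 lines run to the right, toward a higher level in siH19 (11 would with the median difference of 0.41 subtracted).

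Few structural ribosomal proteins had a value. Of 77 genes for proteins of the 60S and 40S subunits, 2 had a listed feature, Rpl13a among 46 of the large subunit and Rpsa among 31 of the small subunit. For comparison, 2051 of the 27025 genes with a RefSeq promoter window, expressed or not, had a listed feature, so that most genes of any kind have no value here. Rpl13a encodes a 60S protein that is also known to repress some mRNAs when released from the ribosome. Its feature stood at 622 FPKM in siCon and 1003 FPKM in siH19, a log2 difference of 0.69. Rpsa encodes a 40S protein that doubles as a laminin receptor, and stood at 286 FPKM in siCon and 488 FPKM in siH19, a log2 difference of 0.77. Both were among the most abundant listed features with a symbol in siCon (percentiles 99.0 and 98.3), and both were higher in siH19 by a similar factor, 1.61 and 1.71. The other 75 structural genes have no value here, so it is not known whether they moved in parallel. Fau, whose product carries a further 40S protein and whose symbol lies outside the rule, was 1.42-fold higher, from 370 to 526 FPKM.

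Rps27l, a paralog of the 40S protein gene Rps27 that is induced by p53, went the other way. It stood at 254 FPKM in siCon and 184 FPKM in siH19, a log2 difference of -0.47. In siCon its level was close to that of Rpsa, which was 1.13-fold higher, whereas in siH19 Rpsa was 2.66-fold higher. It was the 1 listed gene of 10 paralogs and binding partners of ribosomal proteins. Ribosomal protein genes have many processed pseudogenes with near-identical sequence. How reads that map to several copies were assigned is not given in the sources used here, so the levels of these 3 features are uncertain.

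The regions around the annotated starts of Rpl13a, Rpsa, Rps27l and Eif1 are shown because these are the ribosomal members and the initiation factor with the largest difference. Each runs from 80 bases before to 30 bases after the RefSeq start in GRCm38.p6, 5′ to 3′ on the strand of the gene, and for Rps27l the upstream of its annotated starts was taken. Capitals mark a run of at least 8 letters that are C or T near the start, and matches on either strand to TATAA or CGGAAG. Messages for ribosomal proteins typically begin with a tract of C and T, the terminal oligopyrimidine tract through which mTOR controls their translation. A run counted here need not lie at the first base of the message, and tracts shorter than 8 letters are missed. The search therefore does not show whether a message has such a tract.
Rpl13a, chr7:45128716-45128825, minus strand: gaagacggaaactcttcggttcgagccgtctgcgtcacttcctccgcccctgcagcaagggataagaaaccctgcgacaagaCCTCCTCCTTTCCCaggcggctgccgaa
Rpsa, chr9:120127686-120127795, plus strand: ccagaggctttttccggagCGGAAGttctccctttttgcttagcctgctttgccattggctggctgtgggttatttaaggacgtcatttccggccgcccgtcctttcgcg
Rps27l, chr9:66946006-66946115, plus strand: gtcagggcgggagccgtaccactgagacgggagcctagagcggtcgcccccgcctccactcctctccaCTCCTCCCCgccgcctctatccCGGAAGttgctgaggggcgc
Eif1, chr11:100319869-100319978, plus strand: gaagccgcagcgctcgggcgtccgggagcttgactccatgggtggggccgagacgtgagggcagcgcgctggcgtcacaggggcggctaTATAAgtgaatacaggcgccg

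In Rpl13a the run is 14 letters long and begins at the third base after the start. Rps27l has a run of 9 letters that begins 12 bases before its start and lies wholly upstream of it. A further run just before it begins outside the searched stretch and is not in capitals. From 20 bases before the start onward, the printed sequences of Rpsa and Eif1 hold no run of at least 8 letters. RefSeq windows of 300 bases were found for 20 of the 23 members. The run, searched from 20 bases before to 50 bases after the start, was held by 6 of the 20, against 28.5% of all 27025 genes with a window and 28.9% of listed genes with one. This run was searched on the strand of the gene. Other letters were searched over the whole windows on both strands, with overlapping matches allowed. CGGAAG, the core that ETS factors bind, was in 10 of the 20 members against 18.8% of all genes and 27.7% of listed genes with a window. CACGTG, the E-box of MYC, was in 5 members, against 8.09% of all genes and 10.6% of listed genes. CAGCTG, an E-box of myogenic factors, was in 2 members, against 18.3% of all genes and 21.1% of listed genes. TATAA was in 3 members, against 27.99% of all genes and 19.1% of listed genes. These matches describe the letters in annotated windows and are no evidence of a bound factor.

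Initiation factors gave the most members. Of 47 genes named as initiation factors or their subunits, 8 had a listed feature, 6 of them higher in siH19 and 2 lower. Eif4g1 and Eif4g2 were higher only without subtraction of the median of 0.41. Of all listed features with a symbol, 60.1% were higher. Eif1, whose product scans with the 40S subunit and guards the choice of the start codon, showed the largest difference among them. It stood at 92.4 FPKM in siCon and 181 FPKM in siH19, which is 1.96-fold higher. The Eif1 feature (chr11:100319996-100322096, plus strand) covers a single annotated gene of 4 exons, so its level is not mixed with that of a neighbour.

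The eIF4F complex binds the mRNA cap and joins it to the ribosome. Its scaffold is encoded by Eif4g1, which stood at 90.5 FPKM in siCon and 114 FPKM in siH19, a log2 difference of 0.33. Eif4g2 encodes a related scaffold that works without the cap-binding protein, and stood at 133 FPKM in siCon and 174 FPKM in siH19, a log2 difference of 0.38. Both scaffolds were higher, but by less than the median of 0.41 over listed features with a symbol, and with it subtracted their values were -0.08 and -0.03. Of the 3 eIF4G genes 2 were listed, while 0 of the 3 eIF4A helicase genes were.

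The feature for Eif4e2, a cap-binding protein that represses the mRNAs it holds, cannot be read as that gene alone. It stood at 175 FPKM in siCon and 274 FPKM in siH19, a log2 difference of 0.65, and carries the symbols of both Chrng and Eif4e2. Chrng, the gamma subunit of the acetylcholine receptor of embryonic muscle, lies upstream on the same strand (chr1:87204657-87212694) and overlaps this feature (chr1:87205528-87240779) except for its start. The 2 annotated genes do not overlap each other, and the share of each in the level is unknown.

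Eif3b encodes the RNA-binding core of eIF3, the largest initiation factor, and stood at 47.2 FPKM in siCon and 67.6 FPKM in siH19. Its log2 difference was 0.52, and it was the 1 listed gene of 14 for eIF3 subunits. Eif5b, the GTPase that joins the 60S subunit, stood at 6.96 FPKM in siCon and 9.65 FPKM in siH19, a log2 difference of 0.47. The Eif5b feature (chr1:37998010-38129662) runs 74083 bp past the annotated end of the gene, so its boundaries are less certain than those of Eif3b. It covers nearly all of Rev1 (chr1:38052786-38129801), which lies on the opposite strand. Although the feature carries 1 symbol, the share of Rev1 in its level is unknown.

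The 2 lower genes of this list were Eif2b2 and Eif5a2. Eif2b2 encodes a regulatory subunit of eIF2B, which recharges eIF2 with GTP, and stood at 44.3 FPKM in siCon and 34.3 FPKM in siH19, a log2 difference of -0.37. It was the 1 listed gene of 5 for eIF2B, and 0 of 4 genes for the subunits of eIF2 were listed. Eif5a2, the tissue-restricted paralog of the hypusine-containing factor eIF5A, which is named as an initiation factor but acts in elongation and termination, stood at 4.53 FPKM in siCon and 3.36 FPKM in siH19, a log2 difference of -0.43. Neither reached 1.5-fold.

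Regulators of initiation were listed for 2 of 8 genes, with opposite directions. Eif4ebp2 encodes a repressor that sequesters the cap-binding protein until mTOR phosphorylates it. It stood at 10.4 FPKM in siCon and 16.2 FPKM in siH19, a log2 difference of 0.64, and was the 1 listed of 3 genes for such repressors. Eif2ak4 encodes GCN2, the kinase that senses uncharged tRNA and phosphorylates eIF2. It stood at 6.82 FPKM in siCon and 4.86 FPKM in siH19, a log2 difference of -0.49, and was the 1 listed of 4 eIF2 kinase genes.

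**Figure D2:**
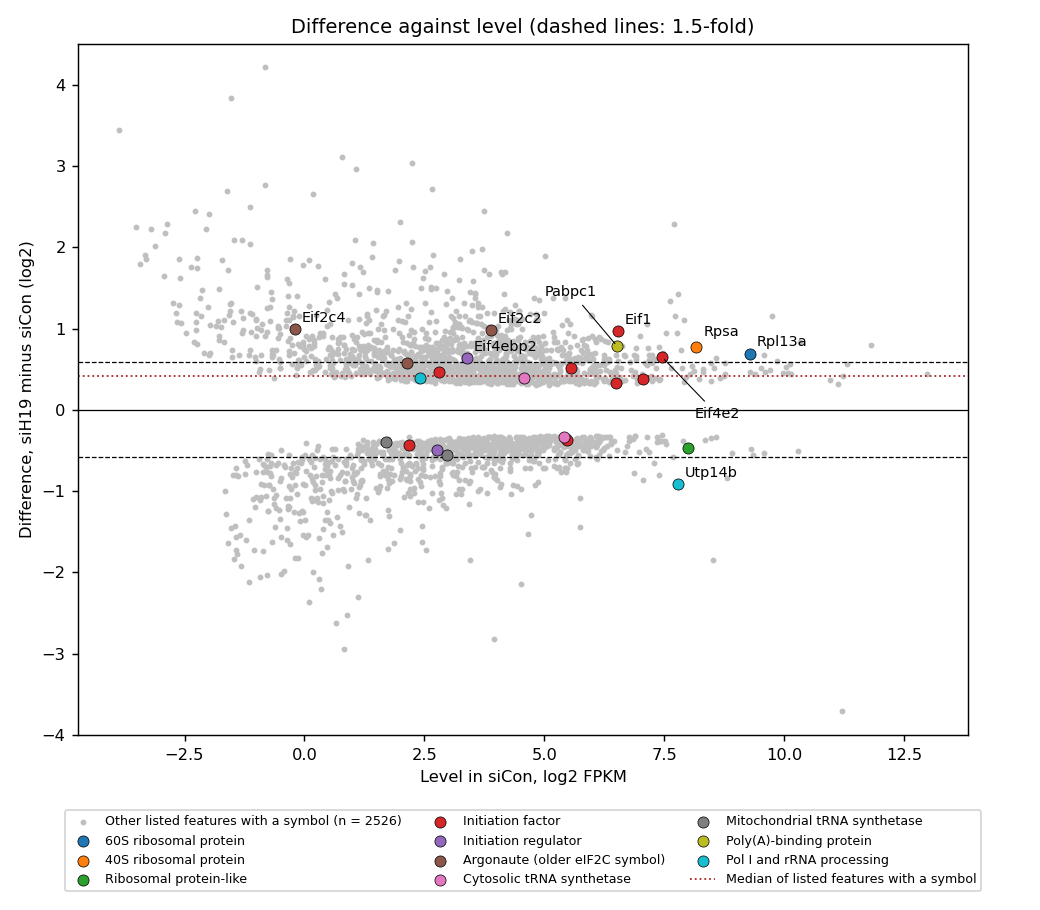
Difference between siH19 and siCon (log2, vertical axis) against level in siCon (log2 FPKM, horizontal axis) for the 23 members (coloured by role, named where past 1.5-fold) and the other 2526 listed features with a symbol (grey). Dashed lines mark 1.5-fold and the dotted line the median of 0.41; the members lie within the grey cloud, mostly on its right side.

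Without a pseudocount, the 3 Argonaute features had 2 of the 3 largest differences among all members. All 3 were higher in siH19, beside 60.1% of all listed features with a symbol. Argonautes load microRNAs and siRNAs and silence the mRNAs these pair with, and both groups had been transfected with an siRNA. Eif2c2, the Ago2 gene, whose product can cut its target, stood at 14.7 FPKM in siCon and 29.0 FPKM in siH19, a log2 difference of 0.98. Eif2c4 (Ago4) stood at 0.871 FPKM in siCon and 1.73 FPKM in siH19, a log2 difference of 0.99. Eif2c3 (Ago3) stood at 4.41 FPKM in siCon and 6.54 FPKM in siH19, a log2 difference of 0.57, just below 1.5-fold. Ago2 was 16.9 times as abundant as Ago4 in siCon. The factors of Ago2 and Ago4 were close to each other on these values, but not with a pseudocount of 1 FPKM. That gave log2 differences of 0.93 for Eif2c2 and 0.54 for Eif2c4. Eif2c4 was then no longer among the 3 largest, with Eif1 at 0.96 and the Utp14b feature at -0.90.

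Summed over the 3 features, Argonaute levels were 20.001 FPKM in siCon and 37.3 FPKM in siH19, and Ago2 made up 73.6% and 77.8% of these sums. Ago3 and Ago4 are neighbours on the minus strand of chromosome 4, with 59.95 kb between their features. Ago1, annotated between them at chr4:126435012-126468583, is the 1 Argonaute gene of 4 without a listed feature. The Ago2 feature (chr15:73095738-73184947) overlaps the end of Chrac1 on the opposite strand.

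Aminoacyl-tRNA synthetases attach amino acids to their tRNAs. Of 34 synthetase genes, 17 cytosolic and 17 mitochondrial, 4 had a listed feature, 1 higher and 3 lower in siH19. Of all listed features with a symbol, 60.1% were higher and 39.9% lower. With 4 features, the split is not read as a trait of the family. The cytosolic isoleucine enzyme, Iars, stood at 23.8 FPKM in siCon and 31.1 FPKM in siH19, a log2 difference of 0.39 that became -0.02 with the median of 0.41 subtracted. The glutamine enzyme, Qars, stood at 42.5 FPKM in siCon and 33.6 FPKM in siH19, a log2 difference of -0.34. Qars was the more abundant in siCon, with Iars at 0.559 times its level, and the pair came close to each other in siH19, at 0.927 times.

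Both listed mitochondrial synthetases were lower, beside 39.9% of all listed features with a symbol. Aars2, for alanine, stood at 7.89 FPKM in siCon and 5.39 FPKM in siH19, a log2 difference of -0.55. Wars2, for tryptophan, stood at 3.23 FPKM in siCon and 2.46 FPKM in siH19, a log2 difference of -0.39. These enzymes serve the mitochondrial ribosome and not the cytosolic one. None of the 4 synthetases reached 1.5-fold.

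Pabpc1 encodes the main cytoplasmic poly(A)-binding protein, which coats the mRNA tail and contacts eIF4G. It stood at 91.8 FPKM in siCon and 158 FPKM in siH19, a log2 difference of 0.78, and was the 1 listed of 7 genes of its family. Its difference was within 0.01 of that of Rpsa, on a level lower by a factor that was the same in both groups (0.321 in siCon and 0.323 in siH19). No gene of the elongation list, which leaves out eIF5A and its paralog, was among the members. Of 11 genes for elongation factors and enzymes that modify them, 1 was listed, the lysine methyltransferase gene Eef1akmt2, under its older symbol Mettl10 in a feature joined with Fam53b. Eef1a1, Eef1a2 and Eef2 have no value here.

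Nucleolar genes were listed for 2 of 25. Polr1b, the second-largest subunit of RNA polymerase I, stood at 5.28 FPKM in siCon and 6.92 FPKM in siH19, a log2 difference of 0.39, or -0.02 with the median of 0.41 subtracted. The feature with Utp14b stood at 219.8 FPKM in siCon and 117 FPKM in siH19. Its log2 difference of -0.91 was the lowest among the members and the only negative one past 1.5-fold. It carries the symbols of Acsl3 and Utp14b, however. Acsl3 encodes an acyl-CoA synthetase of the endoplasmic reticulum, and its annotated span equals the whole feature (chr1:78657825-78707743). Utp14b, a retrogene copy of the rRNA processing gene Utp14a known for its role in the testis, lies inside it on the same strand from 78658038 to 78671512. The share of Utp14b in this level is unknown, so on the values as listed no member with a symbol of its own was lower by 1.5-fold. With the median of 0.41 subtracted, 8 members were lower by that size. Among them were Aars2 (-0.96) and Rps27l (-0.88), each with a symbol of its own.

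**Figure D3:**
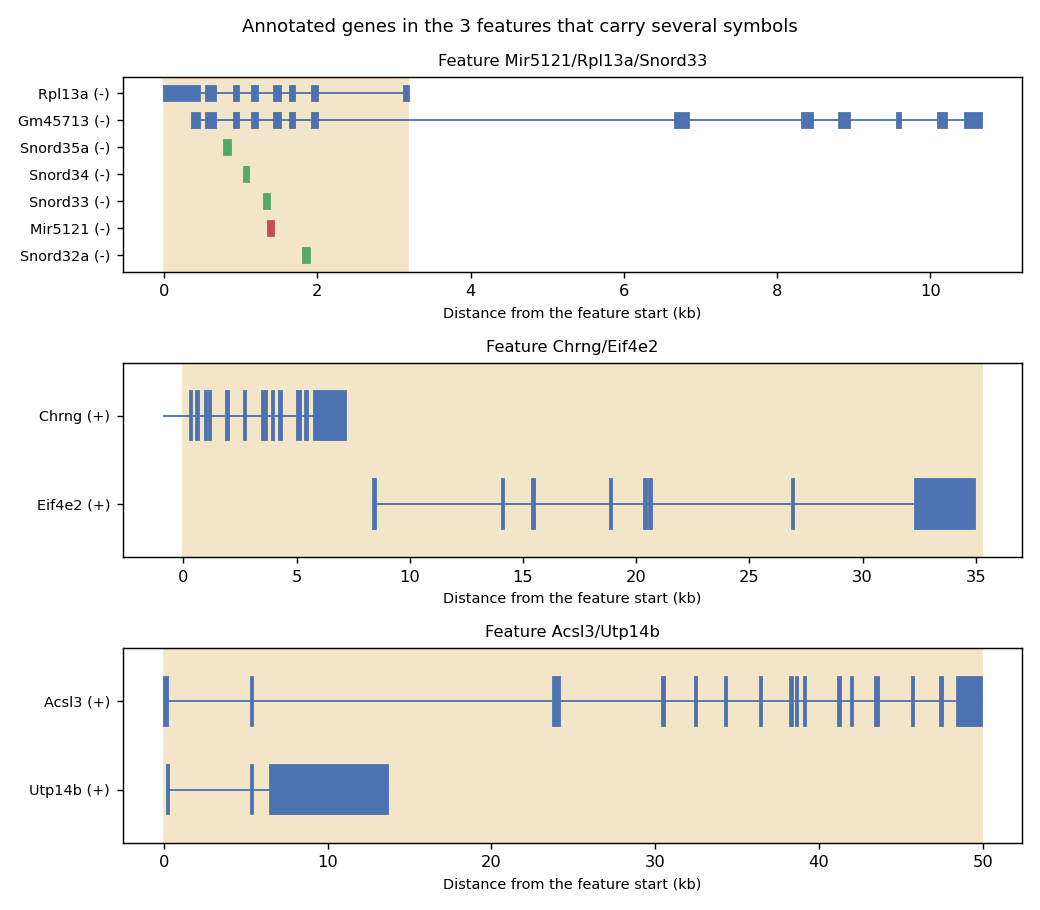
Annotated genes that overlap the features of the members that carry several symbols, drawn to scale in kb from the feature start (shaded: extent of the feature, boxes: exons of the longest coding transcript, lines: introns, sign: strand). Chrng and Eif4e2 lie side by side, Utp14b lies inside Acsl3, and 4 snoRNA genes and Mir5121 lie within Rpl13a.

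Features that carry several symbols made up 3 of the 23 members, against 2.94% of listed features with a symbol. The third is that of Rpl13a (chr7:45125563-45128745, minus strand), which also bears the symbols Mir5121 and Snord33. Within it, GENCODE annotates 4 snoRNA genes, Snord32a, Snord33, Snord34 and Snord35a, in introns of Rpl13a. The longer gene Gm45713 shares exons with Rpl13a and reaches beyond the feature. The mature miRNA of Mir5121 is shown because its symbol is part of this feature, with the seed (bases 2 to 8) in capitals. All of it lies within the annotated Snord33 gene (chr7:45126864-45126947), on the same strand.
mmu-miR-5121, chr7:45126925-45126945, minus strand: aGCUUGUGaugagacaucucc
Short RNAs of this kind guide rRNA modification or silencing once cut from the intron, and their share in the level of 622 FPKM is unknown. In total, 5 members hold annotated snoRNA genes, namely Rpl13a, Rpsa, Eif4g1, Eif4g2 and Iars, with 11 such genes among them. The share of all listed features that hold such genes was not counted, so this count is only a description. No member shared its locus with another listed feature.

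Genes around the translation machinery that the symbols do not reach were counted from lists. Of 33 genes of mTOR signalling, S6 kinases and related regulators of translation, 11 were listed, 7 higher and 4 lower, a split near the 60.1% higher of all listed features with a symbol. Among them Rps6kb1, the S6 kinase that mTOR activates, stood at 16.9 FPKM in siCon and 23.8 FPKM in siH19. Mknk2, a kinase of the cap-binding protein eIF4E, was 1.56-fold higher, and Rps6ka3 was 1.60-fold higher. Rps6ka1, of the same kinase family, was lower, from 1.91 to 0.829 FPKM, a log2 difference of -1.20. Sesn2, a sensor that restrains mTOR when leucine is scarce, was at 0.683 times its siCon level. The other inhibitors of mTOR in this list were Sesn3, with a log2 difference of -0.49, Ddit4, with -0.45, and Deptor, with 0.42. Rptor, a component of the mTOR complex, had a log2 difference of 0.42.

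Further factors of rRNA synthesis and ribosome assembly were listed for 3 of 57 genes, 1 higher and 2 lower, with log2 differences from -0.43 to 0.49. Of 13 genes for termination, recycling and quality control, Abce1, which splits ribosomes after termination, had a log2 difference of 0.34, and Hbs1l, which rescues stalled ones, one of -0.33. Of 9 genes of the integrated stress response, which Eif2ak4 can start, Chac1 was 2.00-fold higher, from 3.58 to 7.16 FPKM, and Atf3 was lower by a log2 difference of -0.48. The remaining list, of 6 proteins of the synthetase complex, had 0 listed.

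**Figure D4:**
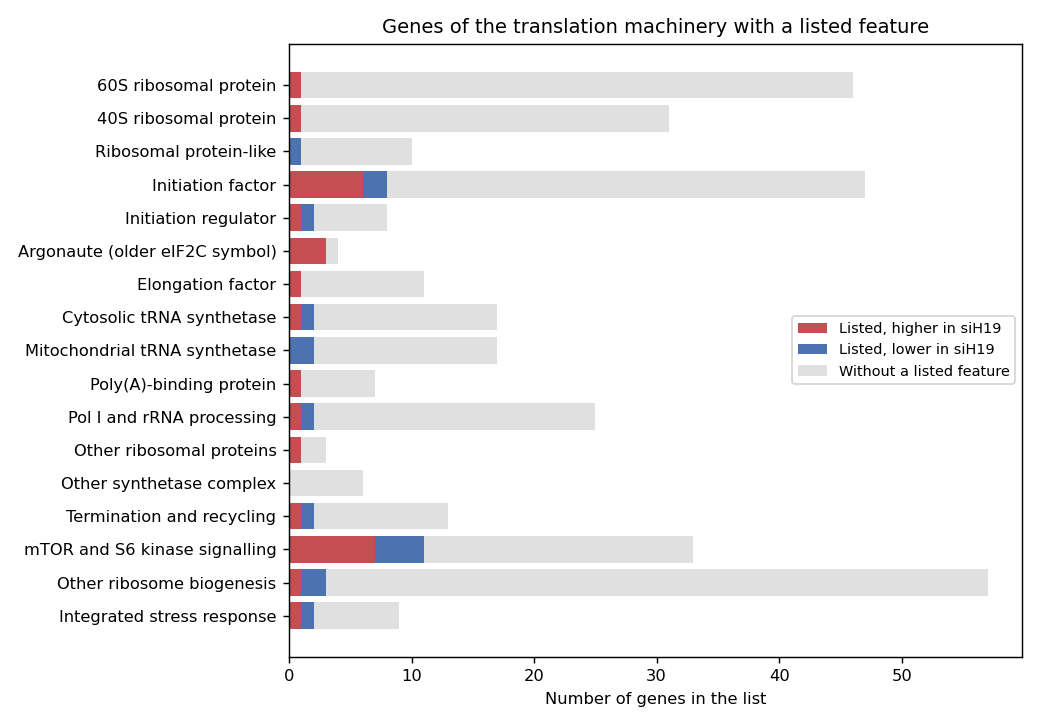
Number of genes (horizontal axis) in each list of the translation machinery that were listed as higher in siH19 (red), listed as lower (blue) or without a listed feature (grey). Of the Argonaute genes 3 of 4 were listed and of the structural ribosomal proteins 2 of 77, beside 2051 of the 27025 genes with a RefSeq promoter window.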

How the data were processed

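RNA-seq libraries of siCon and siH19 myotubes (n = 3 each) were grouped by their labels. The authors used TopHat for mapping to mm10, Cufflinks for assembly and Cuffdiff for the comparison. The submitters' processing notes name TopHat2 2.0.7, TopHat 1.0.0 and Cuffdiff 2.1.1. The authors deposited log2 values: 1 log2 FPKM per feature and group, pooled over the libraries and rounded to 2 decimals. Columns with the authors' fold changes, q-values and calls were not used. Differences were computed as siH19 minus siCon of the log2 FPKM, with a rounding error of up to 0.01, and fold changes from these differences, without a pseudocount or filter. Positions in the table were read as having a start counted from 0, and are given here counted from 1. No test was run, because no value per library was analysed.

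Members and lists were chosen with earlier results of these data known. By the rule for named genes, all members could be named, as could H19 and, in the lists outside the members, features past 1.5-fold and at most the 2 largest differences in each direction. Rps6kb1, Rptor, Deptor, Sesn3, Ddit4 and the genes of microRNA processing were named after their values were seen. Alternatives were other fold limits, a pseudocount, subtraction of the median, and leaving out joined features, low features, or the Argonaute and mitochondrial genes. Older symbols were resolved with RefSeq GRCm38.p6. Loci were set against GENCODE M21 (GRCm38, the assembly also called mm10), and promoter windows and miRNA sequences were those of RefSeq GRCm38.p6. Python 3.11.15, pandas 2.3.3 and matplotlib 3.10.9 were used. The counting was tested on simulated data.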

Additional observations from a re-analysis of the deposited data

How the results depend on the processing

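The precision of each level is unknown, since depth and library values are not part of the pooled values used. No paired analysis was possible because the table holds 1 pooled value per group, and for the same reason no replicate could be left out. Of the 15 higher and 8 lower members, 8 and 1 were left at 1.5-fold and 0 and 0 at 2-fold. Of the 2 higher ribosomal proteins, 0 were left at 2-fold and 1 without joined features. Without joined features, 0 members were lower by 1.5-fold. The filter on features under 1 FPKM in siCon as well as in siH19 removed none of the 23 members, so it tested nothing. A pseudocount of 1 FPKM gave a median of 0.38, and the median over members past 1.5-fold was 0.77. With the median of listed features with a symbol, 0.41, subtracted, 11 members were higher and 12 lower, and 0 were higher and 8 lower by 1.5-fold. The median over members became -0.02, and the direction turned for Eif4g2 (-0.03), Eif4g1 (-0.08), Iars (-0.02) and Polr1b (-0.02). That median is one of called features only, so it does not show a shift of all genes.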

Other observations

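Beside the Argonaute genes, 8 genes of microRNA processing and silencing were looked up after the Argonaute values had been seen. GW182 proteins bind Argonautes and recruit the machinery that shortens poly(A) tails. Tnrc6a stood at 5.39 FPKM in siCon and 9.19 FPKM in siH19, a log2 difference of 0.77, and Tnrc6c at 5.58 FPKM in siCon and 7.57 FPKM in siH19, a log2 difference of 0.44. Tarbp2, a partner of Dicer, had the opposite direction, from 25.3 FPKM in siCon to 19.3 FPKM in siH19, a log2 difference of -0.39. Tnrc6b, Dicer1, Drosha, Dgcr8 and Xpo5 had no listed feature and have no value here.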
